A study of Solanum lycopersicum with 12 samples.

Results

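Allene oxide synthase (AOS) and divinyl ether synthase (DES) are the oxylipin genes followed here in salt-treated tomato roots. All spots that the array's platform annotation assigns to either symbol were taken, which gave 7 clones of AOS and 1 clone of DES out of 3456 clones. A clone is a set of 3 adjacent spots, and it is named below by its gene and its first spot, so that AOS 781 stands for spots 781 to 783. All 8 clones belong to the 3018 that were measured on all 12 arrays. The annotation names 79 clones of the array. It gives the 7 AOS clones the same gene, listed in RefSeq also as LeAOS1, and DES is listed there also as LeDES.

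Both enzymes belong to a plant family of cytochrome P450 proteins that act on fatty acid hydroperoxides made by lipoxygenases. AOS turns such a hydroperoxide into an unstable allene oxide, from which the later enzymes of the pathway make jasmonic acid, a hormone of wounding and stress. DES turns hydroperoxides into divinyl ethers, oxylipins known from tomato and potato and linked to defence against pathogens.

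The study treated tomato seedlings of a salt-sensitive cultivar, ZS-5, and a salt-tolerant one, LA2711, with salt for 30 min, 2 hr or 6 hr. Total RNA of treated roots and of control plants shared an array, and each of the 6 conditions has 2 arrays with the dyes swapped. The arrayed clones came from subtracted libraries, so they are no random sample of the transcripts. The dose of salt and the age of the seedlings were not stated. A dye-swap pair counts as 1 replicate, and it is not known whether times shared control plants, so p-values measure a spread between conditions that may be partly technical. Ratios give no level, so the root tissue could not be checked against markers.

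Values are log2 ratios of treated and control RNA, and all arrays run in the same direction. The labels do not say which RNA is the numerator, so the text speaks of a positive and a negative side and of no induction or repression. Every array was set to a median of 0 over the 3018 clones. Before that step the mean of the array medians was -0.85 in ZS-5 and -0.98 in LA2711 at 6 hr, and it lay between -0.35 and 0.22 at the earlier times. Uncentred values of 6 hr are therefore lower, and they are given beside the centred ones. In a mixed tissue, a change in the number of cells that hold a transcript and a change per cell cannot be told apart.

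The first question is which side of the salt response each clone took at each time. The 7 AOS clones did not follow a single course. AOS 781, AOS 1120, AOS 1384 and AOS 3373 lay on the positive side at 30 min and far on the negative side at 2 and 6 hr. AOS 805 was negative on all 12 arrays, AOS 1540 was positive on all 12, and AOS 10144 had small ratios. DES was positive at 30 min and 2 hr and had a mean below 0 at 6 hr.

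**Figure D1:**
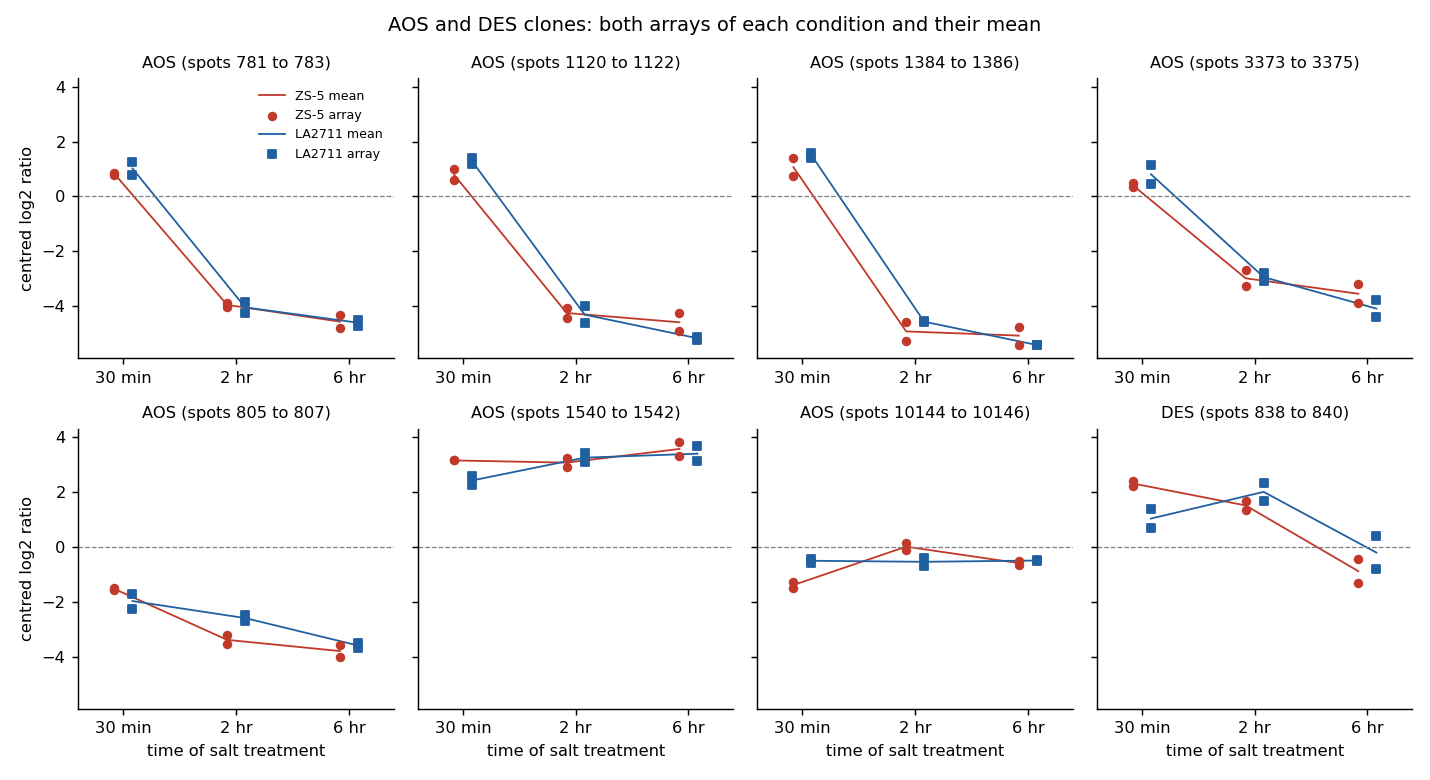
Centred log2 ratios (y axis) of the 7 AOS clones and the DES clone at 30 min, 2 hr and 6 hr of salt treatment (x axis); points are single arrays, lines join the means of the 2 arrays of a condition, red circles are ZS-5 and blue squares LA2711. The 4 AOS clones of the upper row pass from positive values of at most 1.59 at 30 min to values of -2.69 or lower, while AOS 1540 stays at 2.26 or higher.

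AOS 1384 had the widest course of the 8 clones. At 30 min the ZS-5 arrays read 1.41 and 0.73, the LA2711 arrays 1.59 and 1.41. At 2 hr the ZS-5 arrays read -4.59 and -5.25, the LA2711 arrays -4.54 and -4.59. At 6 hr the ZS-5 arrays read -4.74 and -5.40, the LA2711 arrays -5.43 and -5.40. All 4 arrays of 30 min were thus positive and all 8 later ones negative, with the LA2711 arrays above those of ZS-5 at 30 min and overlapping them later. The 6 hr means correspond to a 33.7-fold difference between treated and control RNA in ZS-5 and a 42.7-fold one in LA2711, or, uncentred, to 60.8-fold and 83.9-fold. In LA2711 the clone ranked 11 from the negative end of the 3018 clones at 2 hr and 12 from it at 6 hr.

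AOS 1120 took a similar course. At 30 min its ZS-5 arrays had a mean of 0.80, with the lower one at 0.59, and its LA2711 arrays read 1.42 and 1.17. At 2 hr the ZS-5 arrays were at -4.43 and -4.07, the LA2711 arrays at -4.01 and -4.61. At 6 hr they were at -4.26 and -4.92 in ZS-5, at -5.22 and -5.12 in LA2711. The LA2711 arrays were the higher ones at 30 min and the lower ones at 6 hr, and at 2 hr the genotypes overlapped. Uncentred 6 hr means were -5.44 in ZS-5, -6.15 in LA2711.

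AOS 781 read 0.87 and 0.78 on the ZS-5 arrays of 30 min, 1.26 and 0.78 on those of LA2711. Its values of 2 hr were -3.88 and -4.03 in ZS-5, -3.84 and -4.25 in LA2711, and those of 6 hr were -4.32 and -4.81 in ZS-5, -4.50 and -4.71 in LA2711. The genotypes overlapped at every time in this clone, and uncentred its 6 hr means were -5.42 in ZS-5, -5.58 in LA2711.

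AOS 3373 was the least positive of the 4 at 30 min, with means of 0.41 in ZS-5 and 0.81 in LA2711. At 2 hr its ZS-5 arrays read -2.69 and -3.28, its LA2711 arrays -2.80 and -3.08. At 6 hr the ZS-5 arrays read -3.20 and -3.90, the LA2711 arrays -3.77 and -4.40. Here too the genotypes overlapped at every time, and uncentred the 6 hr means were -4.40 in ZS-5, -5.06 in LA2711.

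Positive values on all 4 arrays of 30 min with negative values on the 8 later ones were found in these 4 of the 7 AOS clones, with centring and without it. Among all 3018 clones 6.36% had this pattern with centring and 7.19% without. The pattern was noted after its values were seen, so these shares are a description.

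AOS 805 was on the negative side throughout. At 30 min its ZS-5 arrays read -1.50 and -1.56, its LA2711 arrays -1.69 and -2.24. The values of 2 hr were -3.22 and -3.54 in ZS-5, -2.48 and -2.70 in LA2711, and those of 6 hr were -3.56 and -4.02 in ZS-5, -3.51 and -3.67 in LA2711. It was thus already negative when AOS 1384 was positive: in LA2711 at 30 min it ranked 46 from the negative end of the 3018 clones and AOS 1384 ranked 96 from the positive end. In LA2711 AOS 805 ranked 256 from the negative end at 2 hr and 341 from it at 6 hr. Its uncentred 6 hr means were -4.64 in ZS-5, -4.56 in LA2711. Among all clones 20% were negative on all 12 arrays.

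AOS 1540 lay on the opposite side. At 30 min both ZS-5 arrays read 3.16, the LA2711 arrays 2.60 and 2.26. The values of 2 hr were 3.24 and 2.92 in ZS-5, 3.42 and 3.11 in LA2711, and those of 6 hr were 3.84 and 3.32 in ZS-5, 3.68 and 3.13 in LA2711. The genotypes overlapped at 2 and 6 hr, and at 30 min ZS-5 was the higher one. In ZS-5 the clone ranked 21 from the positive end of the array at 30 min, 81 at 2 hr and 204 at 6 hr. Its 6 hr mean in ZS-5 was an 11.9-fold ratio, or 6.61-fold uncentred. Among all clones 16% were positive on all 12 arrays. Uncentred means were 3.14, 3.09 and 2.72 at the 3 times in ZS-5, 2.65, 2.91 and 2.43 in LA2711.

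AOS 10144 had small ratios. At 30 min its ZS-5 arrays read -1.28 and -1.49, its LA2711 arrays -0.57 and -0.43. At 2 hr the ZS-5 arrays read 0.14 and -0.11, the LA2711 arrays -0.40 and -0.68. At 6 hr the ZS-5 arrays read -0.65 and -0.52, the LA2711 arrays -0.47 and -0.51. The ZS-5 arrays of 30 min were its only ones past 2-fold. Uncentred, its 6 hr means were -1.44 in ZS-5 and -1.47 in LA2711.

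The DES clone was highest in ZS-5 at 30 min, where its arrays read 2.41 and 2.23, against 1.38 and 0.70 in LA2711. At 2 hr the ZS-5 arrays read 1.69 and 1.35, the LA2711 arrays 2.34 and 1.68. At 6 hr the ZS-5 arrays read -0.45 and -1.31, the LA2711 arrays 0.41 and -0.81. The genotypes did not overlap at 30 min and overlapped at both later times. Uncentred, the 6 hr means of DES were -1.73 in ZS-5, -1.18 in LA2711.

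The positive 6 hr array of DES in LA2711 rested on 1 of its 3 spots. As deposited, spot 838 was at 1.30 there while spots 839 and 840 were at -1.04 and -1.08. On the other array of that condition the 3 spots were at -1.72, -2.22 and -2.28. Over the series, a set with 1 spot more than 2 log2 units from the others and those within 0.5 of each other occurred 24 times in 37649. The SD of the 3 spots was 1.36 in this set, against a median of 0.14 over the 8 clones and 12 arrays. With the median of the 3 spots in place of their mean, DES in LA2711 at 6 hr lay at -0.67 in place of -0.20. Spots also differed on array 2 of ZS-5 at 30 min. The SD there was 0.73 for AOS 781, 0.90 for AOS 1120, 0.83 for AOS 1384 and 0.64 for DES. The other AOS clones had 0.05 to 0.15. As deposited, the spots of AOS 1120 read 1.73, 0.33 and 0.06 on that array. Those of AOS 1384 read 0.63, 0.15 and 1.76.

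**Figure D2:**
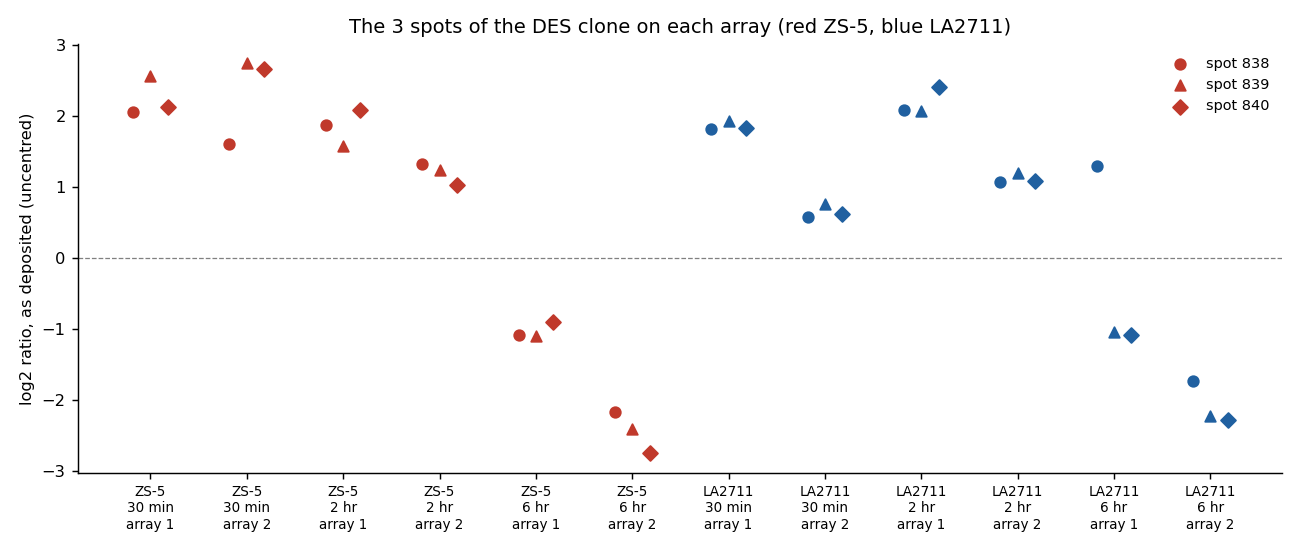
Deposited, uncentred log2 ratios (y axis) of the 3 spots of the DES clone on each of the 12 arrays (x axis); marker shapes are spots 838, 839 and 840, red is ZS-5 and blue LA2711. All spots of 30 min and 2 hr are positive, and at 6 hr spot 838 on array 1 of LA2711, at 1.30, is the single positive one.

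Each condition is 1 replicate, so clones past 2-fold on both of its arrays were counted without a test. At 30 min 1 AOS clone was past 2-fold on the positive side and 2 on the negative in ZS-5, where 10.7% and 5.9% of all clones were. In LA2711 these counts were 3 and 1, against 5.33% and 4.51%. At 2 hr 1 AOS clone was positive and 5 were negative in both cultivars, against 19.4% and 28.1% in ZS-5, 14.1% and 27% in LA2711. The AOS counts were the same at 6 hr, against 36.4% and 37.3% in ZS-5, 32.2% and 35.2% in LA2711. DES passed 2-fold on the positive side in ZS-5 at 30 min and in both cultivars at 2 hr.

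The tests at each time take the mean of both cultivars. A difference between the cultivars at a time counts as spread in them, pooled over the times. At 30 min 6 of the 7 AOS clones were called, 4 on the positive side and 2 on the negative, and DES was called on the positive side. Of all clones 18.2% were called at that time, 9.48% on the positive and 8.75% on the negative side. The positive side held 52% of the calls with centring, 61.6% without it and 33.4% after quantile normalization, which made 1702 calls. AOS 1540 lay at 2.79 ± 0.23 (SE, limma adjusted p = 3.49e-05) and DES at 1.68 ± 0.32 (adjusted p = 0.00583). Of the 4 clones that later switched, AOS 1384 lay at 1.29 ± 0.22 (adjusted p = 0.00316), AOS 1120 at 1.04 ± 0.23, AOS 781 at 0.92 ± 0.19 and AOS 3373, which was not called, at 0.61 ± 0.22 (adjusted p = 0.0906). On the negative side were AOS 805 at -1.75 ± 0.25 (adjusted p = 0.00122) and AOS 10144 at -0.94 ± 0.26 (adjusted p = 0.0355). The AOS median was 0.92, against -0.0015 over all clones tested.

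Several of these early calls were lost when 1 cultivar was left out at 30 min, which leaves 1 replicate there, assumed to vary like the other conditions, and so less power. Without both LA2711 arrays, AOS 781 (0.82, limma adjusted p = 0.112), AOS 1120 (0.80, adjusted p = 0.147) and AOS 1384 (1.07, adjusted p = 0.0605) were not called. Without both ZS-5 arrays, AOS 781 (1.02, adjusted p = 0.0818), DES (1.04, adjusted p = 0.148) and AOS 10144 (-0.50, adjusted p = 0.575) were not called. All of these kept their side. AOS 805 and AOS 1540 were called whichever array or condition was left out.

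The calls of AOS 10144 and AOS 3373 at 30 min also varied with other settings. AOS 10144 was not called without 1 LA2711 array (limma adjusted p = 0.0549), without centring (0.14), or when clones with a value on at least 1 array of every condition were tested (0.0581). AOS 3373 was called without the other LA2711 array (0.78, adjusted p = 0.0448), after quantile normalization (1.01, adjusted p = 0.0309), with the arrays scaled to equal spread (1.82, adjusted p = 0.0278) and with 12 arrays as samples (adjusted p = 0.0148).

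At 2 hr 6 of the 7 AOS clones were called, 1 on the positive side and 5 on the negative, and DES was called on the positive side. Of all clones 68.9% were called, 32.2% on the positive side and 36.6% negative, or 46.8% of the calls positive with centring, 36% without and 35.8% after quantile normalization. AOS 1384 lay at -4.74 ± 0.22 (SE, limma adjusted p = 8.68e-07), AOS 1120 at -4.28 ± 0.23, AOS 781 at -4.00 ± 0.19, AOS 805 at -2.98 ± 0.25 and AOS 3373 at -2.96 ± 0.22. AOS 1540 lay at 3.17 ± 0.23 and DES at 1.77 ± 0.32 (adjusted p = 0.00114). AOS 10144, at -0.26 ± 0.26, was not called (adjusted p = 0.378), and its sign turned without both LA2711 arrays of 2 hr (0.016). The AOS median was -2.98, against 0.015 over all clones. AOS 1384, AOS 1120 and AOS 781 ranked 20, 50 and 68 from the negative end of the 3018 clones.

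At 6 hr the same 6 AOS clones were called, again 1 positive and 5 negative, and DES was not. Of all clones 87.3% were called, 44.9% on the positive side and 42.4% negative, or 51.5% of the calls positive with centring, 35.7% without and 37.1% after quantile normalization. AOS 1384 lay at -5.24 ± 0.22 (SE, limma adjusted p = 2.26e-07), a 37.9-fold ratio, AOS 1120 at -4.88, AOS 781 at -4.58, AOS 3373 at -3.82 and AOS 805 at -3.69. Uncentred, these 5 lay at -6.16, -5.79, -5.50, -4.73 and -4.60. AOS 805 was not called with equal spread of the arrays (-2.13, adjusted p = 0.0617). AOS 1540 lay at 3.49 ± 0.23, or at 2.58 uncentred. The AOS median was -3.82, against -0.043 over all clones.

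DES at -0.54 ± 0.32 (limma adjusted p = 0.138) and AOS 10144 at -0.54 ± 0.26 (adjusted p = 0.0762) missed the threshold at 6 hr. Both were called without centring, DES at -1.45 (adjusted p = 0.00261) and AOS 10144 at -1.45 (adjusted p = 0.00506), and AOS 10144 also with 12 arrays as samples (adjusted p = 0.00897). DES was also called with the median of the spots, at -0.78 (adjusted p = 0.0399), and without the LA2711 array that holds the deviating spot, at -0.84 (adjusted p = 0.0213).

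The next question is when the clones moved. Between 30 min and 2 hr 5 of the 7 AOS clones were called, all towards the negative side, and DES was not. Of all clones 36.3% were called, 24.8% negative and 11.5% positive. The positive share of the calls was 31.7% with centring, 11.6% without, 21.5% with equal spread of the arrays and 40.8% after quantile normalization. The difference was -6.03 ± 0.32 (SE, limma adjusted p = 0.000151) for AOS 1384, -5.32 ± 0.34 for AOS 1120, -4.92 ± 0.28 for AOS 781 and -3.57 ± 0.33 for AOS 3373. AOS 1384, AOS 1120 and AOS 781 ranked 2, 4 and 9 from the negative end of the 3018 clones here. The AOS median was -3.57, against 0.071 over all clones.

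The difference of AOS 805, -1.24 ± 0.36 (SE, limma adjusted p = 0.0293), was less stable. Its sign turned after quantile normalization (0.84) and with the arrays scaled to equal spread (1.63). The call was also lost without both ZS-5 arrays of 30 min (-0.77, adjusted p = 0.261) or of 2 hr (-0.78, adjusted p = 0.139), and without 1 LA2711 array of 30 min (adjusted p = 0.0798) or of 2 hr (adjusted p = 0.0566).

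The remaining 3 clones were not called between 30 min and 2 hr. AOS 1540 differed by 0.38 (95% interval -0.37 to 1.13), AOS 10144 by 0.68 (-0.20 to 1.57) and DES by 0.086 (-1.03 to 1.20). The interval of DES thus holds a 2-fold change in either direction. The sign of the DES difference turned without centring (-0.19). Quantile normalization turned DES (-0.56) and AOS 1540 (-0.29), not called, and brought AOS 10144 to a call at 2.25 (limma adjusted p = 0.0348). Equal spread turned DES (-2.24, not called) and gave a call of AOS 1540 towards the negative side (-3.92, adjusted p = 0.00689). With 12 arrays as samples AOS 10144 was called too (adjusted p = 0.0274), as it was without both LA2711 arrays of 30 min (1.24, adjusted p = 0.0474).

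Between 2 hr and 6 hr DES was the only member called, towards the negative side, and 0 of the 7 AOS clones were. Of all clones 43.3% were called, 24.1% on the positive side and 19.2% negative, or 55.7% of the calls positive with centring and 20.2% without. DES differed by -2.30 ± 0.48 (SE, limma adjusted p = 0.00811), or by -3.04 without centring, and ranked 62 from the negative end of the 3018 clones. The call was lost without both LA2711 arrays of 2 hr (-1.91, adjusted p = 0.0873). In rescaled units the difference was -2.37 after quantile normalization and -2.33 with equal spread of the arrays, and there 0 of the 3018 clones were called.

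The AOS clones moved little in this interval. AOS 781, AOS 1120, AOS 1384, AOS 3373 and AOS 805 differed by -0.50 to -0.86, and 0 of these 5 were called with centring. Without centring they differed by -1.24 to -1.60 and all 5 were called (limma adjusted p = 0.0118 to 0.0428), while all 5 signs turned after quantile normalization, at 0.12 to 0.24, and with equal spread of the arrays, at 1.15 to 2.35. Whether they moved further after 2 hr therefore depends on the scaling. AOS 1540 differed by 0.32, or by -0.42 without centring, and AOS 10144 by -0.28.

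From 30 min to 6 hr 5 AOS clones and DES were called, all towards the negative side. Of all clones 77.4% were called, 35.9% negative and 41.6% positive. The positive share of the calls was 53.7% with centring, 26.7% without, 35.3% with equal spread of the arrays and 44.5% after quantile normalization. The 4 switching AOS clones differed by -4.43 to -6.53, or by -5.44 to -7.54 uncentred, and AOS 1384 ranked 3 from the negative end. DES differed by -2.22 ± 0.48 (SE, limma adjusted p = 0.00361), or by -3.23 uncentred. AOS 805 differed by -1.94 ± 0.36 (adjusted p = 0.00151), or by -2.96 uncentred, with the sign turned after quantile normalization (1.09) and with equal spread (2.87). AOS 1540 at 0.70 (adjusted p = 0.0806) and AOS 10144 at 0.40 (adjusted p = 0.36) were not called, and both were negative without centring, at -0.32 and -0.61. After quantile normalization AOS 10144 was called at 2.18 (adjusted p = 0.029) and AOS 1540 on the negative side at -1.38 (adjusted p = 0.0345), and with equal spread AOS 1540 was called at -5.52 (adjusted p = 0.00566). AOS 1540 was called on the positive side with 12 arrays as samples (adjusted p = 0.00958) and without both ZS-5 arrays of 30 min (1.07, adjusted p = 0.0436). The AOS median was -4.43, against 0.11 over all clones. The 3 comparisons of times share their conditions, and the difference between the courses of AOS and DES was not tested.

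Comparing LA2711 with ZS-5 shows whether the mean response differed by cultivar. With time as a covariate limma called 0 of the 8 clones and 0% of the 3018, of which 196 had an unadjusted p under 0.05. With the 12 arrays as separate samples it called 219 of them. The LA2711 minus ZS-5 difference was 0.15 for AOS 1384 (95% interval -0.45 to 0.75), 0.022 for AOS 781 (-0.51 to 0.56), -0.049 for AOS 1120 (-0.69 to 0.59) and -0.032 for AOS 3373 (-0.65 to 0.59). It was 0.19 for AOS 805 (-0.49 to 0.86), -0.24 for AOS 1540 (-0.85 to 0.37), 0.14 for AOS 10144 (-0.58 to 0.86) and -0.036 for DES (-0.95 to 0.88). All 8 intervals hold 0 and stay within 1 log2 unit of it, so a mean difference of more than 2-fold lies outside them. For DES this rests in part on the deviating spot 838. With the median of the spots the DES difference was -0.27, not called, and no interval is given for it. A difference that changes with time counts as spread in this test.

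At single times the cultivars were set side by side with no test. The widest gap among the members was that of DES at 30 min, 1.04 in LA2711 against 2.32 in ZS-5, a difference of -1.28 that 2.42% of the 3018 clones exceeded in size. At 2 and 6 hr the DES difference was positive, at 0.49 and 0.68, and that of 6 hr rests in part on the deviating spot 838. With the median of the spots DES lay at -0.67 in LA2711 and -0.88 in ZS-5 at 6 hr. AOS 10144 differed by 0.88 at 30 min and by -0.55 at 2 hr, AOS 805 by 0.79 at 2 hr and AOS 1540 by -0.73 at 30 min. The arrays of the cultivars did not overlap in 6 of the 8 clones at 30 min, against 61.7% of all clones, in 2 at 2 hr, against 68.9%, and in 2 at 6 hr, against 50%. The median size of the difference was 0.47 over the 8 clones and 0.34 over all clones at 30 min. At 2 hr these medians were 0.27 and 0.39, and at 6 hr 0.27 and 0.31. Overlap was judged without matching the dyes, in which the 2 arrays of a condition differ. AOS 3373 overlapped at 6 hr, yet LA2711 was below ZS-5 in each dye. With treated RNA in Cy5 it read -3.77 against -3.20, in Cy3 -4.40 against -3.90. AOS 781 had no such order at 6 hr, with -4.50 against -4.32 in Cy5 and -4.71 against -4.81 in Cy3.

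**Figure D3:**
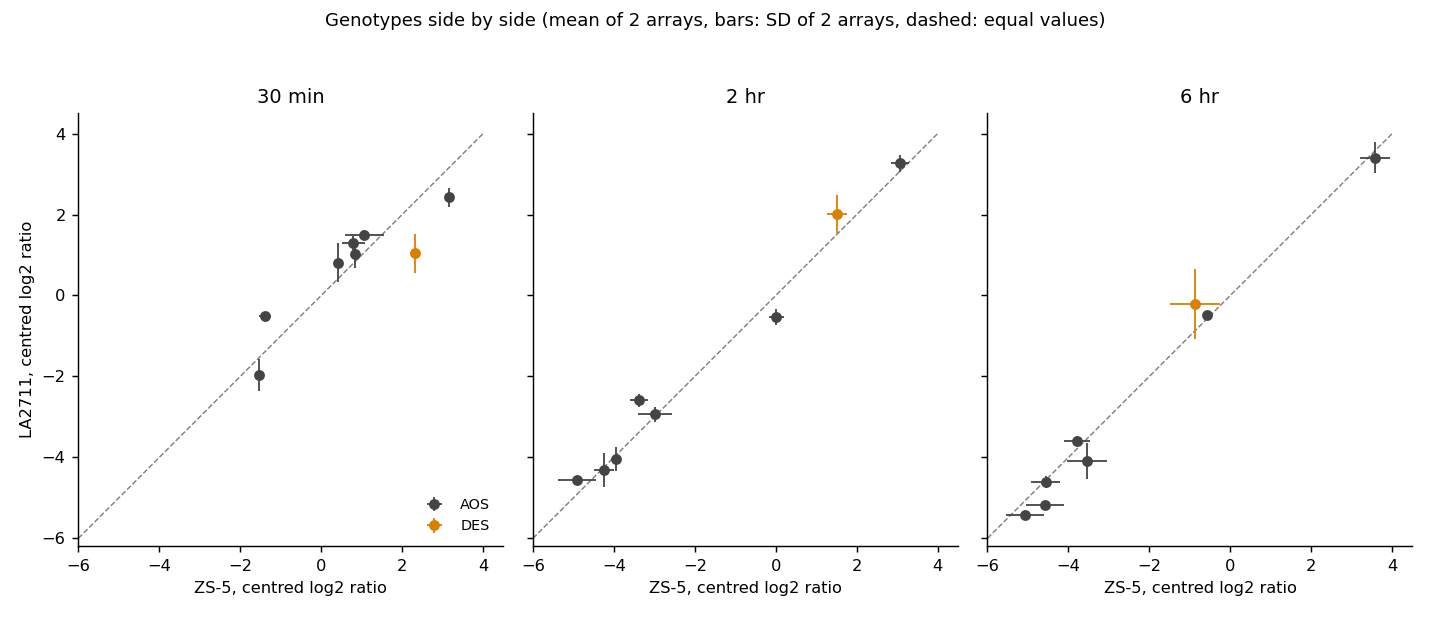
Centred log2 ratios of the 7 AOS clones (grey) and the DES clone (orange) in LA2711 (y axis) against ZS-5 (x axis) at 30 min, 2 hr and 6 hr; points are means of 2 arrays, bars their SD, and the dashed line marks equal values. At 30 min DES lies off the line, at 1.04 in LA2711 and 2.32 in ZS-5, and the AOS clone farthest from it is AOS 10144 at 30 min, with a difference of 0.88.

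Likeness between clones was measured as the root mean square difference of their 6 condition values, which come from the same arrays for all clones, and is given with no test. AOS 781 and AOS 1120 differed by 0.30, and AOS 1120 and AOS 1384 by 0.39. AOS 1120 was the nearest of all 3017 other clones to AOS 1384. AOS 3373 lay 0.78 from AOS 781, and 165 other clones were nearer to AOS 3373. AOS 805 was nearest, among the members, to AOS 3373, at 1.42. AOS 1540 lay 5.66 to 6.87 from the 4 switching clones and 6.06 from AOS 805, against a median of 3.21 to all clones. Whether the 7 clones carry the same transcript was not tested, since no clone sequence was used here.

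**Figure D4:**
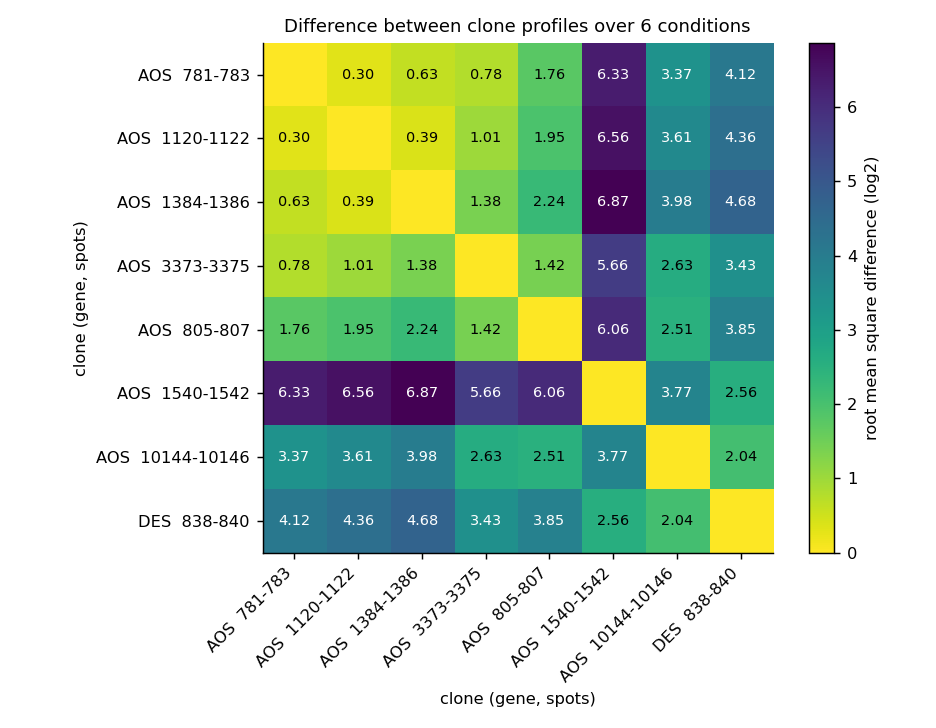
Root mean square difference in log2 units (colour and printed value) between the 6 condition values of each pair of the 8 clones, named on both axes by gene and spots. The 4 clones in the upper left corner differ by 0.30 to 1.38, and AOS 1540 differs from every other AOS clone by 3.77 or more.

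Among named clones of other genes, the 3 nearest to each of the 4 switching AOS clones were all clones of NAC1, a NAC-domain transcription factor. The NAC1 clone of spots 3064 to 3066 was nearest to AOS 1384, at a difference of 0.73, and to AOS 1120, at 0.64. The NAC1 clone of spots 1408 to 1410 was nearest to AOS 781, at 0.55, and to AOS 3373, at 0.54. Of all clones, named or not, 6 were nearer to AOS 1384 than its nearest NAC1 clone. These counts were 12 for AOS 1120, 12 for AOS 781 and 73 for AOS 3373. Only 77 named clones were measured on all 12 arrays, and several of them are of NAC1. The NAC1 clone of spots 3064 to 3066 read 1.42 at 30 min and -3.92 at 2 hr in ZS-5, 1.25 and -3.20 in LA2711. This clone was picked for its likeness over these same values, so its switch of sides follows from that choice.

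The 3 named clones nearest to AOS 1540 were all of LOC778326, at 0.26, 0.27 and 0.31. Those nearest to AOS 805 were a clone of the metallothionein gene MT2 at 0.58, AADC1B, an aromatic amino acid decarboxylase, at 0.61, and ribA at 0.69. Among named clones, AOS 10144 was nearest to TCTP, the translationally controlled tumour protein, at 0.69, to the chaperone gene Hsp90-1 at 0.70 and to PSBR, of photosystem II, at 0.79. Of all clones, named or not, 329 were nearer to AOS 10144 than TCTP was. For AOS 805, 46 were nearer than MT2, and for AOS 1540, 11 were nearer than the first LOC778326 clone.

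DES had no close neighbour on the array: 0 of the 3017 other clones lay within 0.5 of it, against 2 for AOS 1384, 38 for AOS 1540 and 150 for AOS 10144. The nearest of all was the NAC1 clone of spots 4192 to 4194, at 0.66. It read 1.26, 0.99 and -1.05 at the 3 times in ZS-5, 1.79, 1.29 and -0.53 in LA2711. The ethylene response factor gene JERF1 and a clone of LOC543878 followed, both at 0.96. The AOS clone nearest to DES was AOS 10144, at 2.04, and 1457 other clones were nearer.

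Other enzymes of the pathway could not be set beside AOS and DES. Of the 38 named genes, 0 besides these 2 matched, by symbol or synonym, a list of lipoxygenases, allene oxide cyclase, oxophytodienoate reductase, hydroperoxide lyase and jasmonate signalling genes. Likewise 0 matched a list of jasmonate-regulated defence genes. Most clones of the array are unnamed here, so such genes may be among them.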

How the data were processed

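The authors deposited 1 log2 ratio per spot and array, for 12 2-colour arrays, per the labels. Scanner, background correction, normalization and genome build were not stated, and intensities were not used, so the number of arrays limits the precision. That all arrays run the same way follows from the rounding: within the precision of the deposited decimals, the ratio has 3 decimals for 100% of spots on every array with treated RNA in Cy3, and its inverse does so on every array with treated RNA in Cy5. Spots at a limit, where the ratio or its inverse was 0.001 or lower, were left out. None of the members' 288 spot values was among them, and 2 were missing. The spots of a clone were averaged, arrays centred on the median, and the 2 arrays of a condition averaged to 1 value. Over clones, these 2 arrays correlated with r of 0.81 to 0.98, and the lowest r between any 2 arrays was 0.31. Arrays held values for 9013 to 9900 of 10368 spots.

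Tests used limma 3.58.1 in R 4.3.3 (lmFit and eBayes, 2-sided, Benjamini-Hochberg over the 3018 clones, called at an adjusted p under 0.05). Means at a time have 3 residual degrees of freedom. Differences between times (genotype as covariate) and between genotypes (time as covariate) have 2. The fits were tested on simulated data with noise drawn independently for each clone and condition. Shared control plants were not simulated, so this does not measure the error rate in these data. Of the 38 annotated genes, 37 had their gene ID in RefSeq, AOS and DES among them. Named are all AOS and DES clones and, for each, the 3 nearest named clones of other genes. The members, lists and settings were chosen with earlier results of these data known. Alternatives were no centring, quantile normalization, arrays scaled to equal median absolute deviation, the median of spots, limit spots kept, clones with a value on at least 1 array of every condition, 12 arrays as separate samples, and leaving out each array or condition.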

Additional observations from a re-analysis of the deposited data

How the results depend on the processing

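Of 1400 recomputed clone values in the comparisons, 1279 kept direction and side of the threshold, 17 lost the call, 26 gained it and 78 turned sign. At single times 0 of 168 values changed side under the alternatives that keep all arrays. Part of this was fixed in advance. Taking 12 arrays as samples or testing more clones leaves these values as they were, and no member spot was at a limit. Equal spread only rescales each centred array. Among the turned values, AOS 1540 passed the threshold on the other side for 2 hr minus 30 min with equal spread and for 6 hr minus 30 min with equal spread and after quantile normalization. Equal spread and quantile normalization bring the arrays to a common spread, which centring does not. The cause of the changes was not tested. No paired analysis was possible because repeat numbers mark dye swaps of the same 2 RNAs, which were averaged to 1 value.

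Calls at 30 min (550) became 1702 after quantile normalization, 1384 with equal spread and 1280 with 12 arrays as samples; at 6 hr (2635) equal spread gave 1619. For 2 hr minus 30 min (1096) equal spread gave 688 and 12 arrays 1889. For 6 hr minus 2 hr (1308) quantile normalization and equal spread gave 0, and 12 arrays 2119; members called (1) became 6 without centring, 0, 0 and 5. For 6 hr minus 30 min (2337) quantile normalization gave 1114 and equal spread 808. Between genotypes 12 arrays gave 219, against 0.

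Without centring, signs turned for 2 hr minus 30 min in DES (-0.19), for 6 hr minus 2 hr in AOS 1540 (-0.42), for 6 hr minus 30 min in AOS 1540 (-0.32) and AOS 10144 (-0.61), and between genotypes in AOS 781 (-0.059). After quantile normalization they turned for 2 hr minus 30 min in AOS 805 (0.84), DES (-0.56) and AOS 1540 (-0.29), and for 6 hr minus 30 min in AOS 805 (1.09) and AOS 1540 (-1.38). For 6 hr minus 2 hr they turned in AOS 781 (0.22), AOS 805 (0.24), AOS 1120 (0.15), AOS 1384 (0.12), AOS 1540 (-1.09) and AOS 3373 (0.12), and between genotypes in AOS 805 (-0.015), DES (0.058), AOS 1540 (0.043) and AOS 3373 (0.013). With equal spread they turned for 2 hr minus 30 min in AOS 805 (1.63), DES (-2.24) and AOS 1540 (-3.92), and for 6 hr minus 30 min in AOS 805 (2.87) and AOS 1540 (-5.52). For 6 hr minus 2 hr they turned in AOS 781 (1.91), AOS 805 (1.24), AOS 1120 (2.04), AOS 1384 (2.35), AOS 1540 (-1.60), AOS 3373 (1.15) and AOS 10144 (0.011), and between genotypes in AOS 805 (-1.09), AOS 1120 (0.41), AOS 1540 (0.84) and AOS 3373 (0.30). With the median of spots the genotype difference turned in AOS 1120 (0.038) and AOS 3373 (0.064).

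Leaving out an array or a condition gave 238 to 668 calls at 30 min (members 4 to 8), 628 to 1207 for 2 hr minus 30 min, 649 to 1389 for 6 hr minus 2 hr (members 0 to 2) and 0 to 12 between genotypes. The lowest count at 30 min came without ZS-5 at 30 min, and those of the 2 time differences without ZS-5 at 2 hr and at 6 hr. Signs turned for AOS 10144 at 2 hr (-0.54 to 0.016), for 6 hr minus 2 hr (-0.80 to 0.24) and for 6 hr minus 30 min (-0.15 to 0.96), and for DES in 2 hr minus 30 min (-0.85 to 1.02). Between genotypes they turned for AOS 781 (-0.065 to 0.10), AOS 805 (-0.12 to 0.50), DES (-0.39 to 0.59), AOS 1120 (-0.32 to 0.22), AOS 1540 (-0.45 to 0.0046), AOS 3373 (-0.25 to 0.22) and AOS 10144 (-0.23 to 0.49).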
